A study of Mus musculus with 22 samples.

Results

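The genes described here copy DNA or divide the cell. A list of 38 symbols held 20 genes of S phase, in which the genome is copied, and 18 of mitosis, in which the copies are parted. Each gene was represented by the probe set, annotated to its symbol, with the highest mean over all arrays. For the mitotic cyclin Ccnb1 no probe set was listed under that symbol in the annotation used here, so 37 genes (20 of S phase and 17 of mitosis) were measured, among 18193 genes in all.

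NOD mice, which are inbred and prone to autoimmune diabetes, supplied RNA of the terminal ileum, which was read on 22 single-colour Affymetrix arrays. The groups were PAT females (3 arrays), PAT males (5), STAT females (3), STAT males (3), control females (3) and control males (5). PAT mice had antibiotic in pulses of therapeutic dose, STAT mice had it at a sub-therapeutic level, and the control groups carry the label control. The strain and tissue were common to every group. The sources used here give no agent, dose or age. Nothing in the labels says that the arrays came from separate animals, so the spread behind each p-value is that between arrays and may be technical, and the small number of arrays limits precision.

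In the small intestine, cells divide in the crypts, where stem cells and their transit-amplifying daughters supply the villi with enterocytes that no longer divide. Origins of replication are licensed when Cdc6 and Cdt1 load the MCM helicase, the GINS complex then helps to activate it, and primase, polymerase alpha and the clamp Pcna copy the strands with nucleotides from ribonucleotide reductase. Mitosis is run by cyclins A and B with Cdk1, by the Aurora and Polo kinases, by spindle motors, and by a checkpoint that delays the parting of chromosomes. S-phase genes are classically switched on by E2F factors, while many mitotic genes are kept silent until late in the cycle by the DREAM complex acting at the cell cycle genes homology region (CHR), often with CCAAT boxes beside it.

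The promoters of both classes were read for those elements, because they are the sequence feature in which the classes are known to differ. RefSeq promoter windows (GRCm38.p6, 250 bases before the start site to 50 after it) were found for 30 of the 37 measured genes, 16 of S phase and 14 of mitosis. This reference is of the strain C57BL/6J, not of NOD. Of the 32 windows of these genes, 21 had a start site within 2 bases of that in the RefSeq gene annotation. The E2F words searched were TTCCCGC, read on the other strand as GCGGGAA, and TTGGCGC, read there as GCGCCAA. The CHR word was TTTGAA, which reads on the other strand as TTCAAA, and the last word was CCAAT, which reads there as ATTGG. An E2F word was found in 11 of 16 S-phase promoters (68.8%) and in 2 of 14 mitotic promoters (14.3%), against 11.7% of the 14453 measured genes with a window and 7.79% of all 27025 windowed genes. The CHR word stood in 1 of 16 S-phase promoters (6.25%) and in 10 of 14 mitotic promoters (71.4%), against 15.7% of measured genes and 20.2% of all. CCAAT was present in 11 of 16 S-phase promoters (68.8%) and 12 of 14 mitotic promoters (85.7%), against 42.0% of measured genes and 41.1% of all. Words overlapped one another in Mcm3, Mcm7, Prim1, Uhrf1 and Ube2c. A match is a run of letters only, and it does not show that a factor binds there.

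The last 180 bases before the start site are shown for 3 genes of each class, chosen to show an E2F word or a CHR word next to the values given later, with all such words in capitals and every sequence 5′ to 3′ on the gene's own strand. Rrm1 (chr7:102441515-102441694, plus strand), Cdc6 (chr11:98907971-98908150, plus strand) and Mcm6 (chr1:128359706-128359885, minus strand) carry an E2F word. Kif11 (chr19:37376202-37376381, plus strand), Ccnb2 (chr9:70421555-70421734, minus strand) and Top2a (chr11:99024190-99024369, minus strand) carry a CHR word in either orientation together with CCAAT. In Ccnb2 the printed CHR word begins at base -167 and the nearest CCAAT at -87. A further TTTGAA, at bases 5 to 10 counted from the start site, falls outside the printed stretch.
Rrm1: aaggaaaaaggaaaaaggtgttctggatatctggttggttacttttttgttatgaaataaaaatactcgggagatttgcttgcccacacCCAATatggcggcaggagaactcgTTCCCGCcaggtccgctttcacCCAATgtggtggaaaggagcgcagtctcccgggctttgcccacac
Cdc6: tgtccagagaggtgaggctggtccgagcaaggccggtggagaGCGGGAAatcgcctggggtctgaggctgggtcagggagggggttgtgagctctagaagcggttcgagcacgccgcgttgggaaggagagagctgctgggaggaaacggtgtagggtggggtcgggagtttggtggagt
Mcm6: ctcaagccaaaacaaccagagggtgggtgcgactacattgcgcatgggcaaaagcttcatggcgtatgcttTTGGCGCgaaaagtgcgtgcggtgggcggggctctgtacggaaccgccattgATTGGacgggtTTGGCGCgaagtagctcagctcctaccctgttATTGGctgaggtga
Kif11: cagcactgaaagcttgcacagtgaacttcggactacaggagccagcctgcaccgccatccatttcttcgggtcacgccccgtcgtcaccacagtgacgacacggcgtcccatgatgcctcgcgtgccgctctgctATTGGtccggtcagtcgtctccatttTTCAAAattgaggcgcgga
Ccnb2: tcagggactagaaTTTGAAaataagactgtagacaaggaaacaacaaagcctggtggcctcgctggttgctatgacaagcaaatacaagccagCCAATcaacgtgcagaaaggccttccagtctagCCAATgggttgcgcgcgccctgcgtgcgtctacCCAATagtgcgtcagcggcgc
Top2a: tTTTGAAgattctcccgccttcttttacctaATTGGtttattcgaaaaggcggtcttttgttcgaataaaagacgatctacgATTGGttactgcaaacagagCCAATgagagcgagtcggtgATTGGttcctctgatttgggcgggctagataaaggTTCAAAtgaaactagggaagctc

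Ileal identity held on every array: Fabp6, the ileal bile acid binding protein, lay between 13.93 and 14.62 on the log2 scale, and Gata4, a factor of the upper small intestine, between 4.98 and 6.06. A few arrays stood apart from their groups. PAT female 1 had a mean deviation of 1.37 over 11 markers of B cells and follicles (each gene's value minus its mean over all arrays), while PAT females 2 and 3 had -0.07 and -0.12 and control females ranged from -0.20 to -0.09. STAT males 2 and 3 had log2 differences of 0.59 and 0.60 between the 3-prime and 5-prime beta-actin control probe sets, against 0.28 to 0.42 on the 20 other arrays, and villus enterocyte scores of -1.04 and -0.56. Counts of called genes in the comparisons that these arrays enter are also given without them, and the counts of the wider pathway lists without them were chosen after seeing the data.

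The S-phase and mitotic genes moved as related but separable blocks. Across the 22 arrays, deviations from the group means had a median Pearson correlation of 0.79 within the S-phase class (190 gene pairs) and 0.78 within the mitotic class (136 pairs), against 0.59 between the classes (340 pairs) and 0.016 between the 37 genes and all genes. These pairs share arrays and normalization and are given as a description. By mean correlation, 18 of 20 S-phase genes lay closer to their own class, Rrm1 and Pola1 being the exceptions, and all 17 mitotic genes lay closer to theirs. The probe set of Tyms, thymidylate synthase, followed neither class (mean correlation of 0.16 with S phase). It stayed between 4.21 and 4.90, below every array median (5.68 to 5.79), and whether it reports Tyms RNA was not tested.

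In PAT females the differences from control females lay on the higher side for nearly all division genes, though few passed the test. Of the 37 genes, 36 had a difference above 0 (97.3%, against 48.8% of all genes), with a median log2 difference of 0.53 over the S-phase class and 0.46 over the mitotic class. The median over all genes was -0.01. Values did not overlap between the groups, PAT above control, for 19 of 20 S-phase and 10 of 17 mitotic genes (78.4% of the 37, against 14.7% of all genes). At an adjusted p under 0.05, limma called 3 of the 37 higher (8.11%, against 2.27% of all genes), namely Mcm3 and Rrm1 of S phase and Bub1 of mitosis, and none lower. Whether there were more dividing cells or more of this RNA per cell cannot be told apart in bulk tissue, here or in the comparisons that follow.

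Mcm3, a subunit of the helicase, had the largest S-phase difference. It measured 9.17, 8.95 and 8.88 in PAT females, against 8.29, 8.14 and 7.84 in control females. All PAT arrays lay above all control arrays, and the difference was 0.91 ± 0.23 (SE, n = 3 and 3, adjusted p = 0.031), or 1.88-fold. The other 5 subunits had differences of 0.35 (Mcm7) to 0.69 (Mcm5), and each also separated the groups without overlap, although none was called, and all were smaller than those of Cdc6, Rrm2, Uhrf1 and Gins1 given next. Averaged over the 6 subunits, the deviation was 0.59, 0.42 and 0.36 on the PAT arrays, against 0.02, -0.08 and -0.39 on the control arrays. Mcm3 has 5 probe sets, whose differences ran from -0.08 for the dimmest to 0.91.

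Rrm1, the large subunit of ribonucleotide reductase, measured 9.36, 9.08 and 8.86 in PAT females and 8.57, 8.52 and 8.39 in control females. The groups did not overlap, and the difference was 0.61 ± 0.16 (adjusted p = 0.045). Its small partner Rrm2, supplied chiefly in S phase, differed by 0.85 ± 0.28 and was not called (adjusted p = 0.084). The licensing factors Cdc6 (0.86 ± 0.25, adjusted p = 0.059) and Cdt1 (0.43), the GINS subunits Gins1 (0.75) and Gins2 (0.47), primase and polymerase alpha (Prim1 0.45, Pola1 0.65), the clamp Pcna (0.41), the chromatin factors Chaf1b (0.45) and Uhrf1 (0.80), and the cyclins Ccne1 (0.35) and Ccne2 (0.42) were all positive without being called. Tyms was the exception at -0.06 ± 0.15, on the dim probe set described above.

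In the mitotic class Bub1, a kinase of the spindle checkpoint, measured 8.71, 9.05 and 8.36 in PAT females, against 8.14, 7.77 and 7.87 in control females. No PAT value fell within the control range, and the difference was 0.78 ± 0.20 (adjusted p = 0.041). The other 16 genes ran from 0.19 for the cyclin Ccnb2 to 0.65 for the Aurora kinase Aurkb. The arrays differed in which class was highest: PAT female 1 had the highest value of all 22 arrays for 11 of the 20 S-phase genes and 0 of the 17 mitotic genes, whereas PAT female 2 had it for 2 and 13.

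The 3 calls in females rested on every array but PAT female 3. Mcm3, Rrm1 and Bub1 each lost the call when any of the other 5 arrays was left out, at adjusted p between 0.050 and 0.19, while the direction stayed. Without PAT female 1, the array with the high B cell score, all 37 differences lay above 0, with medians of 0.49 for S phase and 0.45 for mitosis, and 0 genes were called. All 3 calls were also lost with the Gapdh 3-prime to 5-prime difference as a covariate, in which Mcm3 stood at 0.81 (adjusted p = 0.11), Rrm1 at 0.48 (0.17) and Bub1 at 0.62 (0.15). With probe sets averaged per gene, Mcm3 was at 0.55 (adjusted p = 0.059) and Rrm1 at 0.35 (0.055), neither called. The Gapdh difference itself ranged from -0.11 to -0.03 in PAT females, against -0.20 to -0.09 in control females.

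**Figure D1:**
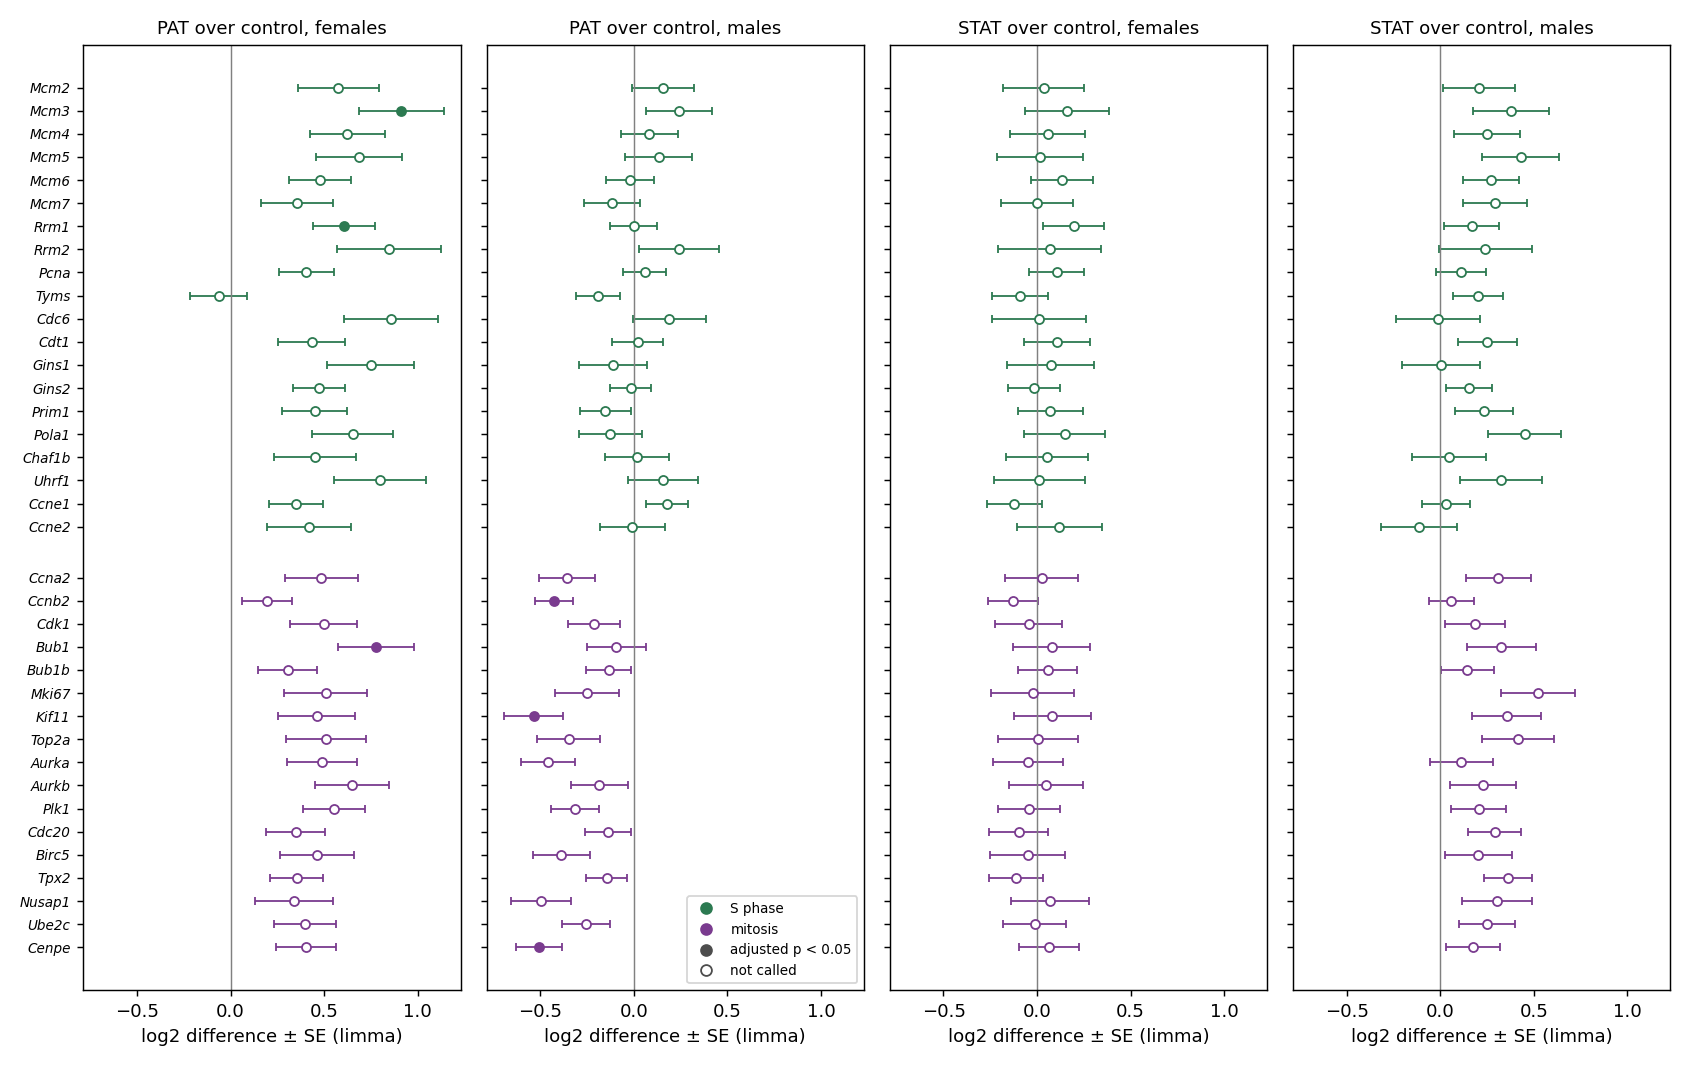
Log2 differences (x axis, points with bars of ± 1 SE from limma) of the 20 S-phase genes (green) and 17 mitotic genes (purple) in 4 comparisons with controls of the same sex. Filled points are the 3 genes called in PAT females and the 3 called in PAT males; nearly all points lie right of 0 in PAT females, and in PAT males only the mitotic block lies wholly left of 0.

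In PAT males the mitotic differences all lay on the lower side and the S-phase differences on both sides, while a difference between the classes was not tested. The mitotic genes had 17 of 17 differences from control males below 0 and a median of -0.31, while the S-phase genes stood at a median of 0.02, with 11 of 20 above 0. The sign of that S-phase median was not stable, since it was -0.0001 after centring on array medians and -0.03 with array weights. Over all genes 52.4% of differences lay below 0 and the median was -0.01. limma called 3 mitotic genes lower (Ccnb2, Cenpe and Kif11) and 0 of 20 S-phase genes. An unadjusted p under 0.05 was found for 9 of 17 mitotic and 0 of 20 S-phase genes, against 25% of all genes. The 3 calls are 8.11% of the 37 genes, close to the 6.68% of all genes called lower.

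Ccnb2, a partner of Cdk1 at entry into mitosis, measured 8.93, 8.82, 9.00, 9.28 and 9.10 in PAT males, against 9.55, 9.42, 9.28, 9.72 and 9.30 in control males. PAT male 4 reached the lowest control value and the 4 others lay below every control. The difference was -0.43 ± 0.10 (SE, n = 5 and 5, adjusted p = 0.013), or 1.34-fold lower, and it was called whichever array was left out. After repeated quantile normalization it was -0.36 and not called (adjusted p = 0.052).

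Cenpe, a kinetochore motor that carries chromosomes to the spindle equator, measured 7.16, 6.78, 6.93, 6.95 and 7.09 in PAT males and 7.53, 7.31, 7.35, 7.88 and 7.36 in control males. The groups did not overlap, as for 2 of the 37 genes in the lower direction (5.41%, against 5.29% of all genes), Nusap1 being the other. The difference was -0.51 ± 0.12 (adjusted p = 0.014), and without PAT male 2 the adjusted p was 0.051.

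Kif11, the motor that pushes the spindle poles apart, measured 6.65, 6.64, 6.72, 7.18 and 7.36 in PAT males, against 7.56, 7.28, 7.32, 7.85 and 7.22 in control males. PAT males 1 to 4 lay below all controls and PAT male 5 within their range. The difference was -0.54 ± 0.16 (adjusted p = 0.039), and the call was lost without any of PAT males 1, 2 and 3 or control males 1 to 4 (adjusted p 0.053 to 0.12), and after repeated quantile normalization (-0.46, adjusted p = 0.088). Its 3 probe sets gave -0.54, -0.55 and -0.45.

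Among the mitotic genes not called, the kinase Aurka came nearest (-0.46 ± 0.14, adjusted p = 0.051), followed by Nusap1, a microtubule-binding protein of the spindle (-0.50 ± 0.16, adjusted p = 0.057), and the chromosomal passenger Birc5 (-0.39). Bub1, called in females, was at -0.09 ± 0.16. In the S-phase class the smallest p-values belonged to Tyms (-0.19 ± 0.12) and Ccne1 (0.17 ± 0.11). Tyms measured 4.21, 4.23, 4.26, 4.36 and 4.40 in PAT males and 4.87, 4.54, 4.28, 4.38 and 4.35 in control males, and Ccne1 measured 7.07, 7.25, 6.83, 7.36 and 7.59 against 6.86, 7.11, 6.99, 7.11 and 7.16. Both pairs of groups overlapped, and the Tyms values lay below every array median.

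The MCM genes showed how much PAT males varied among themselves. Their mean deviation was -0.13, -0.12, -0.60, 0.28 and 0.20 in PAT males, against -0.25, -0.05, -0.33, 0.13 and -0.26 in control males. PAT male 3 had the lowest value of all 22 arrays for 14 of the 20 S-phase genes, and PAT male 2 for 10 of the 17 mitotic genes. Without PAT male 3 the S-phase median was 0.15 with 15 of 20 genes above 0, the mitotic median was -0.27 with 17 of 17 below 0, and 2 mitotic genes were called.

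Subtracting the mitotic from the S-phase mean on each array gave 0.30, 0.43, -0.12, 0.31 and 0.19 in PAT males, against -0.18, 0.08, -0.14, -0.22 and -0.14 in control males. Thus 4 of the 5 PAT males exceeded every control male, and PAT male 3 lay inside the control range. In females the same quantity was 0.11, -0.22 and 0.26 with PAT and -0.09, 0.02 and -0.08 in controls, so the PAT arrays lay on both sides of the controls. In STAT mice it was -0.01, -0.06 and 0.12 in females and -0.22, -0.30 and -0.04 in males.

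**Figure D2:**
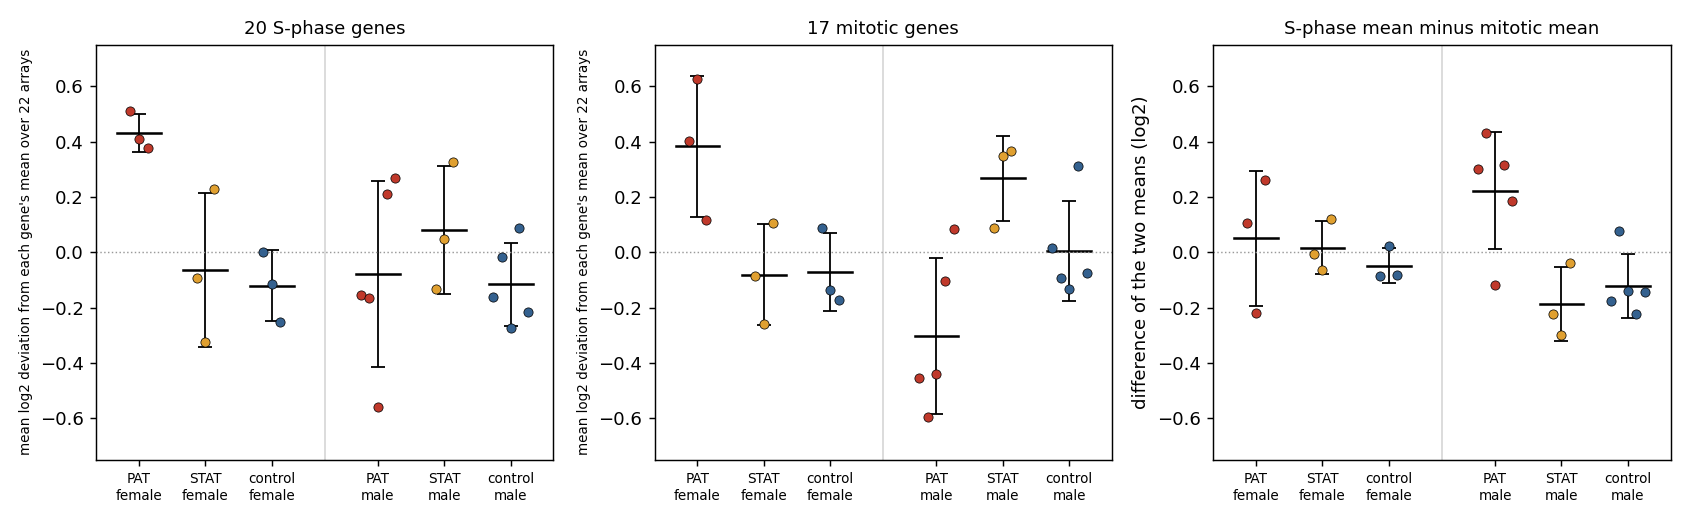
Mean log2 deviation of the 20 S-phase genes (left), of the 17 mitotic genes (middle) and their difference (right) on each of the 22 arrays (points), with group mean (line) and SD (bars), n = 3 or 5. PAT females have the highest group mean in both classes, though in mitosis PAT female 3 (0.12) lies below STAT males 2 (0.35) and 3 (0.36). PAT males have mitotic values from -0.60 to 0.08 with 4 of 5 class differences above every control male.

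Averaged over the sexes with equal weight, PAT against control gave 3 called genes, all of S phase. Mcm3 (0.58 ± 0.14, adjusted p = 0.012), Cdc6 (0.52 ± 0.16, adjusted p = 0.036) and Rrm2 (0.54 ± 0.18, adjusted p = 0.049) were higher, 3 of 20, and 0 of 17 mitotic genes were called (1 of them, and 13 of the S-phase genes, had an unadjusted p under 0.05, against 10.4% of all genes in that direction). The share of the 37 called higher was 8.11%, against 4.61% of all genes. Differences lay above 0 for 19 of 20 S-phase and 13 of 17 mitotic genes, while a difference between the classes was not tested here. In the wider lists of 30 replication and 40 mitotic genes described later, the replication genes Dut (0.50 ± 0.11), Hells (0.59 ± 0.17), Dbf4 (0.36 ± 0.10) and Slbp (0.21 ± 0.06) were called higher. So were the mitotic genes Cks1b (0.40 ± 0.12) and Cks2 (0.41 ± 0.09), against the same 4.61% of all genes. The class medians were 0.26 for S phase and 0.08 for mitosis, and the mitotic median is an average of the opposite signs described above.

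Cdc6, which recruits the helicase to origins, measured 6.76, 6.81 and 6.78 in PAT females, against 6.01, 5.72 and 6.05 in control females. In PAT males it measured 6.22, 6.41, 5.61, 6.73 and 6.84, against 5.89, 6.44, 5.98, 6.37 and 6.18 in control males. The female groups were apart, whereas PAT male 3 lay below every control male and PAT males 4 and 5 above every one.

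Rrm2 measured 9.72, 9.58 and 9.63 in PAT females and 8.95, 8.88 and 8.56 in control females. In PAT males it measured 8.63, 8.92, 8.19, 9.39 and 9.72, against 8.61, 8.85, 8.48, 9.06 and 8.64 in control males. The order of the PAT males was that seen for Cdc6, with PAT male 3 lowest and PAT male 5 highest. For Mcm3 the PAT males read 8.28, 8.31, 7.66, 8.84 and 8.55, and the control males 7.94, 8.13, 7.95, 8.43 and 7.99.

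The mitotic genes with the smallest p in that average were Bub1 (0.34 ± 0.13, adjusted p = 0.095) and Aurkb (0.23 ± 0.12). In males Bub1 measured 7.88, 7.72, 7.83, 8.34 and 8.45 with PAT and 8.02, 8.09, 8.05, 8.49 and 8.04 in controls. The Mcm3 call held whichever array was left out, and without PAT female 1 the count was 2 of 37. That of Cdc6 was lost in 12 and that of Rrm2 in 13 of 16 such runs, and all 3 were lost with the Gapdh 3-prime to 5-prime difference as a covariate (adjusted p 0.13 to 0.36). In males that difference ranged from -0.23 to -0.08 with PAT, against -0.26 to -0.20 in controls, and its part in the result was not tested beyond that fit.

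**Figure D3:**
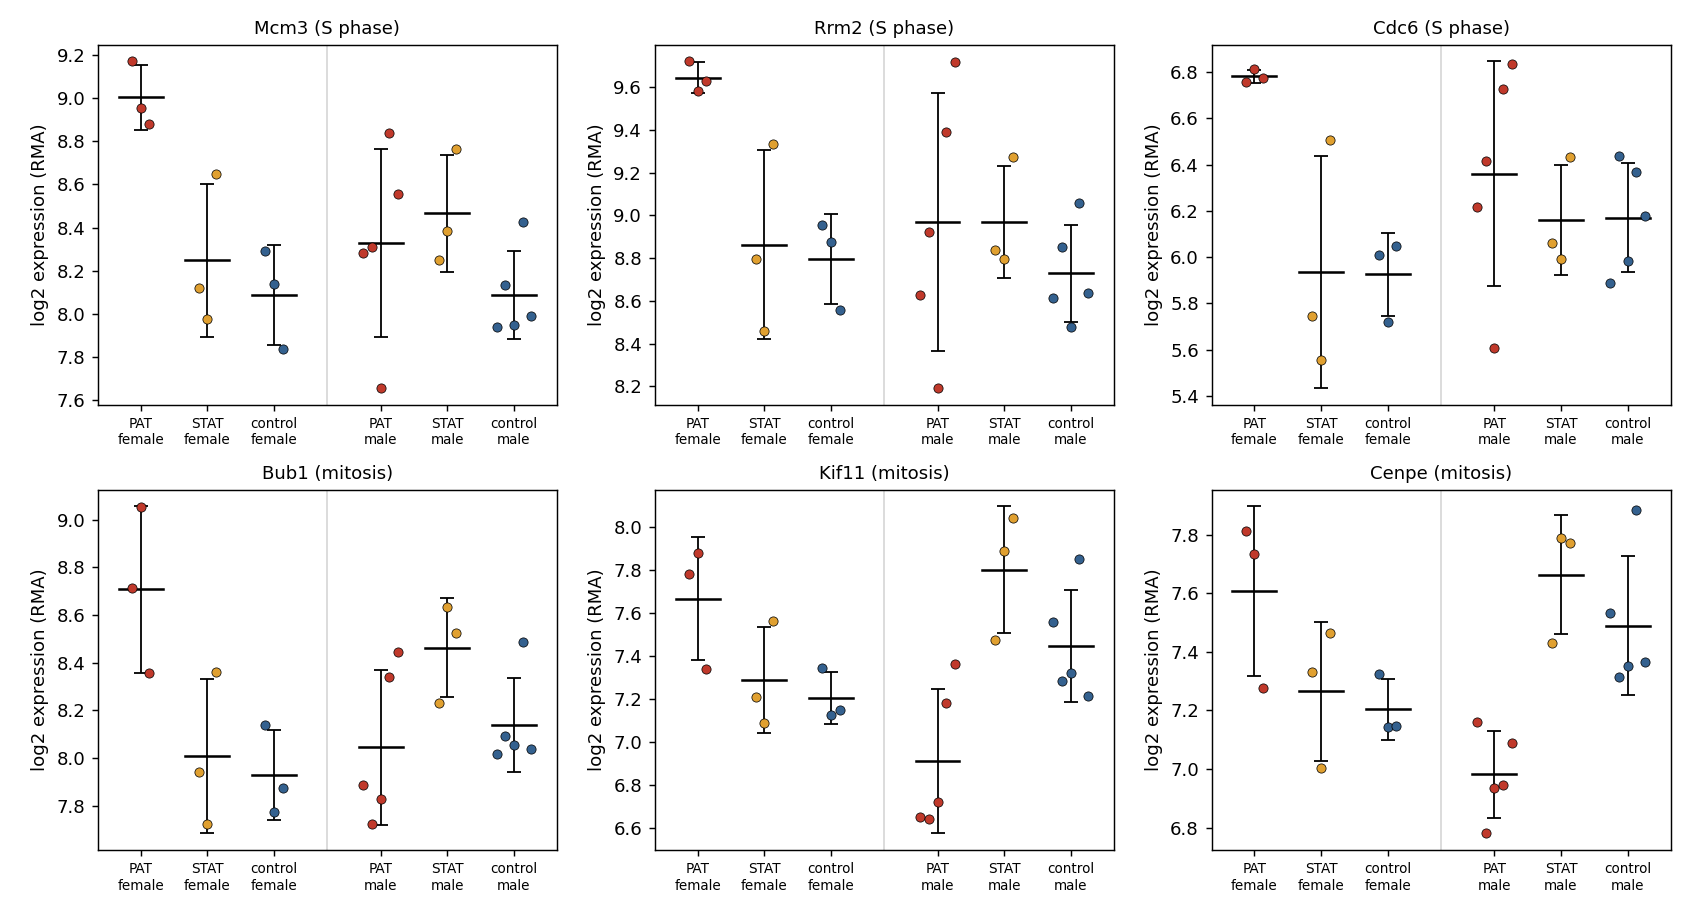
Log2 expression of 3 S-phase genes (top) and 3 mitotic genes (bottom) on every array (points), with group mean (line) and SD (bars), n = 3 or 5. Mcm3, Rrm2 and Cdc6 are apart between PAT and control females and spread widely in PAT males, and Cenpe lies lower in all 5 PAT males than in any control male.

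The female and male effects of PAT were set against each other directly as an interaction. All 37 differences of effects lay above 0 (100%, against 53.9% of all genes), with medians of 0.52 for S phase and 0.84 for mitosis, against 0.03 over all genes. No gene of the 37 was called by limma (1 of 18193 genes was, 0.0055%), and the lowest adjusted p was 0.10. Without PAT female 1 all 37 again lay above 0, with medians of 0.46 and 0.79, and 0 were called. At an unadjusted p under 0.05, 9 of 20 S-phase and 17 of 17 mitotic genes were higher (70.3% of the 37, against 12.1% of all genes). The difference was 0.91 ± 0.20 for Cenpe, 0.87 ± 0.21 for the Polo kinase Plk1, 0.86 ± 0.29 for Gins1 and 0.61 ± 0.21 for Rrm1. A difference between the sexes in the response of these genes was therefore not established at the adjusted threshold. Both effects are taken from controls of the same sex, and among controls females and males differed in 0 of the 37 genes (10 of all genes, 0.055%, were called by limma, and 0 of the 37 had an unadjusted p under 0.05, against 12.5% of all genes).

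Of the control female and male arrays, the smallest p-values were those of Cenpe (-0.29 ± 0.14, females minus males) and Kif11 (-0.24 ± 0.18) in mitosis, and of Chaf1b (0.24 ± 0.20) and Mcm2 (-0.23 ± 0.19) in S phase. Cenpe measured 7.32, 7.14 and 7.15 in control females and 7.53, 7.31, 7.35, 7.88 and 7.36 in control males, which overlapped at the edge. Plk1 measured 8.49, 8.68 and 8.09 in PAT females, 7.39, 7.29, 7.61, 7.62 and 8.0 in PAT males, 7.95, 7.92 and 7.73 in control females and 7.96, 7.82, 7.65, 8.21 and 7.83 in control males. The PAT females were above their controls, and 4 of 5 PAT males were below theirs.

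**Figure D4:**
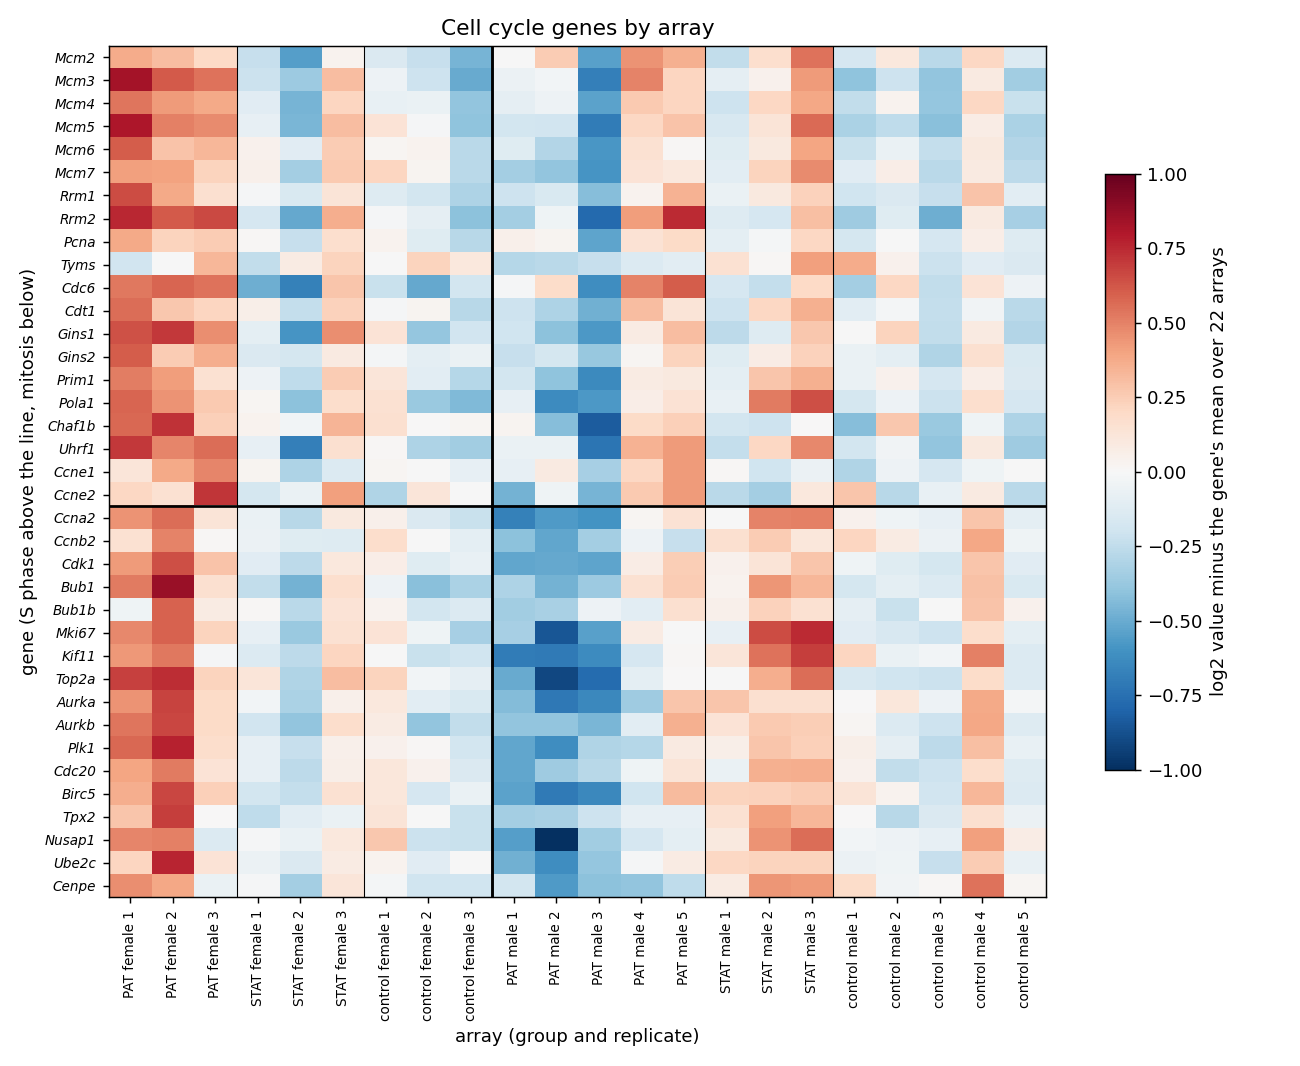
Heat map of the 37 genes (rows, S phase above the line and mitosis below) on the 22 arrays (columns), as log2 value minus the gene's mean over all arrays, from -1 (blue) to 1 (red). PAT females are mostly red in both blocks, though PAT female 3 is faint and mixed in the mitotic block. PAT males 1 to 3 are blue chiefly in the mitotic block and PAT male 3 in both.

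With the fit used throughout, sub-therapeutic STAT gave no detectable change in these genes at this number of arrays. Against control, limma called 0 of 37 genes in females, 0 in males and 0 in the average of the sexes, as it called 0 of all 18193 genes in each (0%). The count over all genes in males was not stable, at 1973 without STAT male 1 and 4069 with array weights, and in the average at 1053 and 2288. Nor was the count among the 37: array weights brought calls in males and in the average, as given in the closing section. Without STAT males 2 and 3, 0 of the 37 were called in males, in the average and in the interaction given below. An unadjusted p under 0.05 was found for 0 of the 37 genes in females (3.31% of all genes) and 0 in the average (13.1%). In females the class medians were 0.06 for S phase and -0.01 for mitosis. The smallest p-values there were those of Rrm1 (0.20 ± 0.16), Ccne1 (-0.12 ± 0.14), Ccnb2 (-0.13 ± 0.13) and Tpx2, an activator of Aurka (-0.11 ± 0.14). Rrm1 measured 8.69, 8.55 and 8.83 in STAT females, against 8.57, 8.52 and 8.39 in control females, and Ccnb2 measured 9.28, 9.22 and 9.21 against 9.51, 9.33 and 9.24.

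In STAT males 35 of 37 differences lay above 0 (94.6%, against 48.1% of all genes), with medians of 0.22 for S phase and 0.25 for mitosis, and 5 genes had an unadjusted p under 0.05 (13.5%, against 5.6% of all genes). They were Pola1 (0.45 ± 0.19) and Mcm5 (0.43 ± 0.21) of S phase, and Mki67, which coats mitotic chromosomes (0.52 ± 0.20), Top2a, which untangles sister chromatids (0.41 ± 0.19), and Tpx2 (0.36 ± 0.13). Mki67 measured 9.56, 10.30 and 10.39 in STAT males, against 9.53, 9.48, 9.44, 9.82 and 9.55 in control males. STAT males 2 and 3 were above every control and STAT male 1 was among them. Without STAT males 2 and 3 the medians were -0.01 for S phase and 0.07 for mitosis, and Mki67 stood at -0.0014.

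Pola1, the catalytic subunit of polymerase alpha, showed the same split, with 7.99, 8.59 and 8.71 in STAT males and 7.89, 8.01, 7.85, 8.23 and 7.90 in control males. Averaged over the sexes, the smallest p-values were those of Pola1 (0.30 ± 0.15), Mcm6 (0.20 ± 0.11), Mki67 (0.25 ± 0.15) and Kif11 (0.22 ± 0.14), all uncalled. As an interaction, the STAT effect in females minus that in males was called for 0 of 37 genes, and 1 of them, Tpx2 (-0.47 ± 0.19), had an unadjusted p under 0.05 (0% and 1.5% of all genes). Tyms (-0.29 ± 0.20), Mcm5 (-0.41 ± 0.31) and Cdc20, the activator of the anaphase-promoting complex (-0.39 ± 0.21), followed.

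Set against STAT males, PAT males had 12 of 17 mitotic genes lower and 0 of 20 S-phase genes (32.4% of the 37, against 5.24% of all genes called lower). At an unadjusted p under 0.05, 16 mitotic and 4 S-phase genes were lower, against 15% of all genes, and 7 of the 37 separated the groups without overlap, against 7.08% of all genes. The differences were -0.89 for Kif11, -0.80 for Nusap1, -0.77 for Mki67, -0.76 for Top2a, -0.68 for Cenpe, -0.67 for Ccna2, -0.59 for Birc5, -0.57 for Aurka, -0.52 for Plk1, -0.51 for Tpx2, -0.50 for the ubiquitin-conjugating enzyme Ube2c and -0.48 for Ccnb2. The 5 others ran from -0.28 to -0.43, and the class medians were -0.52 for mitosis and -0.17 for S phase. Of the 12 genes called lower, Aurka, Top2a and Tpx2 have several probe sets, and these did not all differ in the same direction. Kif11 measured 7.47, 7.89 and 8.04 in STAT males, above all 5 PAT males listed earlier (SE 0.18, adjusted p = 0.0063). Nusap1 measured 8.18, 7.74, 8.38, 8.56 and 8.63 in PAT males, against 8.83, 9.18 and 9.29 in STAT males, again without overlap (SE 0.19, adjusted p = 0.013).

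Cenpe measured 7.43, 7.79 and 7.77 in STAT males, above every PAT male. The STAT males had 9.50, 9.59 and 9.45 for Ccnb2 and 6.65, 6.91 and 6.83 for Tpx2, against 6.16, 6.18, 6.29, 6.42 and 6.42 for Tpx2 in PAT males, both without overlap. For Top2a the PAT males measured 9.01, 8.61, 8.75, 9.41 and 9.52 and the STAT males 9.51, 9.88 and 10.08, which touched at the edge. In the S-phase class Pola1 (-0.58 ± 0.19, adjusted p = 0.067) and Tyms (-0.39 ± 0.14, adjusted p = 0.073) came nearest, Tyms on its dim probe set. PAT males measured 7.99, 7.44, 7.49, 8.14 and 8.21 for Pola1, overlapping the STAT males given above.

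This comparison rested on STAT males 2 and 3. With either left out 0 genes were called, and without PAT male 2 there were 5. Without both STAT males 2 and 3, which leaves STAT male 1 alone and assumed to vary like the other groups, 17 of 17 mitotic differences still lay below 0 (median -0.38), Kif11 stood at -0.56 and the S-phase median at 0.06. Markers of other cells moved with this comparison: 7 of 7 villus enterocyte markers lay above 0 (median 0.57), with Alpi, Fabp2, Apoa1, Apoa4 and Vil1 called higher, and 7 of 7 crypt stem cell markers lay below 0 (median -0.48), with Ascl2 called lower (-0.96 ± 0.18). The villus score was 0.06 to 0.43 in PAT males, against -0.04, -1.04 and -0.56 in STAT males, and the crypt score was -0.46 to -0.18, against -0.28, 0.36 and 0.33. The smooth muscle marker Myh11 (-0.78 ± 0.22) and the goblet cell marker Spink4 (-0.40 ± 0.10) were also called lower. The part of these markers in the mitotic differences was not tested.

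In PAT against STAT females 37 of 37 differences lay above 0 (100%, against 48.5% of all genes), and 0 were called by limma (0.863% of all genes were, either way). At an unadjusted p under 0.05, 27 of the 37 were higher (73%, against 8.33% of all genes). Plk1 (0.60 ± 0.17, adjusted p = 0.084) and Gins2, a GINS subunit (0.49 ± 0.14, adjusted p = 0.092), came nearest, followed by Bub1 (0.70 ± 0.20) and Cdc6 (0.85 ± 0.25). Cdc6 measured 5.74, 5.56 and 6.51 in STAT females, below all PAT females, and Plk1 measured 7.83, 7.68 and 7.96, also below. Averaged over the sexes PAT against STAT gave 0 called genes of 37 (5.88% of all genes were called either way), 3 with an unadjusted p under 0.05, all S-phase and higher (9.28% of all genes), with medians of 0.19 for S phase and -0.04 for mitosis. The smallest p-values were those of Ccne1 (0.31 ± 0.10, adjusted p = 0.064), Cdc6 (0.52 ± 0.17, adjusted p = 0.070), Nusap1 (-0.26 ± 0.14) and Kif11 (-0.26 ± 0.14). Without PAT female 1 there were 0 called genes in females and 1 in that average, and without STAT males 2 and 3 there were 0 in that average. PAT against control and PAT against STAT share the PAT arrays, and both treatments share the controls.

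Further genes of the same pathways were read from lists of 30 measured replication genes and 40 measured mitotic genes outside the 37. In PAT against control females 3 of 30 replication genes were higher and 0 lower, against 2.27% of all genes higher. They were Dut, which keeps uracil out of DNA (0.81 ± 0.17), Dbf4, the activator of the Cdc7 kinase (0.76 ± 0.17), and Pole, the leading-strand polymerase (0.77 ± 0.18). Dut measured 9.69, 9.40 and 9.39 in PAT females and 8.78, 8.70 and 8.56 in control females, which did not overlap. Of the 40 mitotic genes 3 were higher, Cks1b (0.79 ± 0.18), Cep55 (0.68 ± 0.17) and Ccnf (0.53 ± 0.14). The list medians were 0.45 and 0.41. Without PAT female 1 all 6 calls were lost (adjusted p 0.079 to 0.19), and the medians were 0.38 and 0.37. Against STAT females, 2 of the 40 mitotic genes were called higher, against 0.528% of all genes. They were Cks1b (0.78 ± 0.18) and Ncapg (0.60 ± 0.13), and both lost the call without PAT female 1. In the average of PAT against STAT over the sexes, the replication gene Cdc25a (0.36 ± 0.09) was called higher, against 2.89% of all genes.

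In PAT against control males 2 of 30 replication genes were lower, Gins4 (-0.36 ± 0.08) and the clamp loader subunit Rfc2 (-0.25 ± 0.07), with a list median of -0.08, a share near the 6.68% of all genes called lower. Of the 40 mitotic genes 8 were lower and 0 higher, against the same 6.68%, with a median of -0.28. Without PAT male 3 there were 7 lower and 1 higher. The 4 of smallest p were the motor Kif20a (-0.57 ± 0.13), Aspm, a spindle pole protein (-0.63 ± 0.15), Tacc3 (-0.41 ± 0.10) and the cytokinesis scaffold Anln (-0.46 ± 0.12). Against STAT males 21 of the 40 were lower, against 5.24% of all genes. By smallest p they were led by Esco2, a cohesin acetyltransferase counted here as mitotic (-1.27 ± 0.23), Kif20a (-0.81 ± 0.15), Anln (-0.70 ± 0.14) and Kif2c (-0.72 ± 0.15). Without overlap, Esco2 measured 5.03, 5.40, 4.79, 5.30 and 5.66 in PAT males, against 6.19, 6.56 and 6.76 in STAT males. The PAT male values are dim, below every array median (5.68 to 5.79). With STAT male 2 or STAT male 3 left out, 3 of the 40 were called (Esco2, Kif20a and Anln each time), and without both 0 were, with Esco2 at -0.96 (adjusted p = 0.27) and 37 of 40 differences below 0.

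Of 23 genes that control entry into the cycle or restrain it, 0 were called in PAT females (3.35% of all genes were called either way) and 5 in PAT males, 2 higher and 3 lower (9.02% of all genes either way). Cdkn1a, the CDK inhibitor p21, measured 12.95, 12.85, 12.73, 12.45 and 12.29 in PAT males, against 12.02, 11.85, 11.92, 11.61 and 11.81 in control males. All PAT males were above all controls, and the difference was 0.81 ± 0.15 (adjusted p = 0.0028). Mdm2, a p53 target that marks p53 for destruction, measured 10.35, 10.67, 9.81, 9.54 and 8.69 in PAT males and 8.30, 8.61, 8.64, 8.45 and 8.57 in control males, again without overlap (1.30 ± 0.24, adjusted p = 0.0021). PAT male 5, with the lowest values of both genes among PAT males, had the highest S-phase and mitotic means in that group, 0.27 and 0.08. The same array had the lowest mean deviation of smooth muscle markers of all 22, -0.84, against -0.28 to 0.15 in the other PAT males. This is a reading of 1 array, and no link among these values was tested. Rbl2, a pocket protein of the DREAM complex (-0.59 ± 0.13), and the CDK inhibitors Cdkn2d (-0.47 ± 0.10) and Cdkn2c (-0.41 ± 0.11) were lower. In PAT females Cdkn1a measured 11.74, 12.01 and 12.55, against 11.84, 11.94 and 11.98 in control females, a difference of 0.18 ± 0.20. Mdm2 measured 8.75, 8.89 and 9.50 against 8.55, 8.31 and 8.44, without overlap but uncalled (0.61 ± 0.31, adjusted p = 0.26). Averaged over the sexes, Mdm2 (0.955 ± 0.19) and Cdkn1a (0.50 ± 0.13) were among those called higher. Rbl2 (-0.45 ± 0.11) and Cdkn1b (-0.38 ± 0.09) were among those called lower. Against STAT males, PAT males had Cdkn1a (1.30) and Mdm2 (1.56) called higher, and Cdkn1b (-0.58) and Ccng1 (-0.37) lower. Cdkn1b and Ccng1 lost that call without STAT male 2 or 3.

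Markers of other cell types moved beside these results. The mean deviation of 7 crypt stem cell markers was -0.34, -0.46, -0.32, -0.18 and -0.34 in PAT males, against 0.15, 0.09, 0.03, 0.01 and -0.09 in control males, all below. Ascl2 (-0.85 ± 0.16, adjusted p = 0.0025) and Sox9 (-0.44 ± 0.12, adjusted p = 0.027) were the 2 of 7 called. The 7 villus enterocyte markers averaged 0.42, 0.08, 0.43, 0.06 and 0.29 in PAT males and 0.06, -0.04, -0.21, -0.37 and -0.10 in control males, an average carried by Fabp1 (1.46 ± 0.35) and Apoa4 (1.43 ± 0.42), the 2 called higher, since the median of the 7 differences was 0.08 and 2 lay below 0. In females the crypt score was 0.36, 0.03 and 0.08 with PAT and 0.13, 0.05 and -0.09 in controls, with 0 of 7 called. The villus score was 0.44, 0.22 and 0.44 with PAT and -0.10, 0.05 and 0.04 in controls, and Fabp1 (1.79) and Apoa4 (2.03) were again the 2 called, while the median difference was -0.12 and 4 of 7 lay below 0. Of the markers of Paneth cells, which sit at the crypt base, 5 of 5 lay below 0 in PAT males (median -0.42), with Mmp7 (-0.54) and Pla2g2a (-0.82) called lower. Of 6 plasma cell markers in PAT males, Sdc1 was higher (0.47) and Tnfrsf17 (-0.51) and Mzb1 (-0.74) lower, and of 5 germinal centre markers S1pr2 was higher (0.29). Of the 11 B cell markers, Cxcl13 alone was called in PAT females. The lowest reading of any crypt marker was 6.10, for Rnf43. The part of crypt, villus, Paneth, plasma, B cell or smooth muscle content in the results was not tested.

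**Figure D5:**
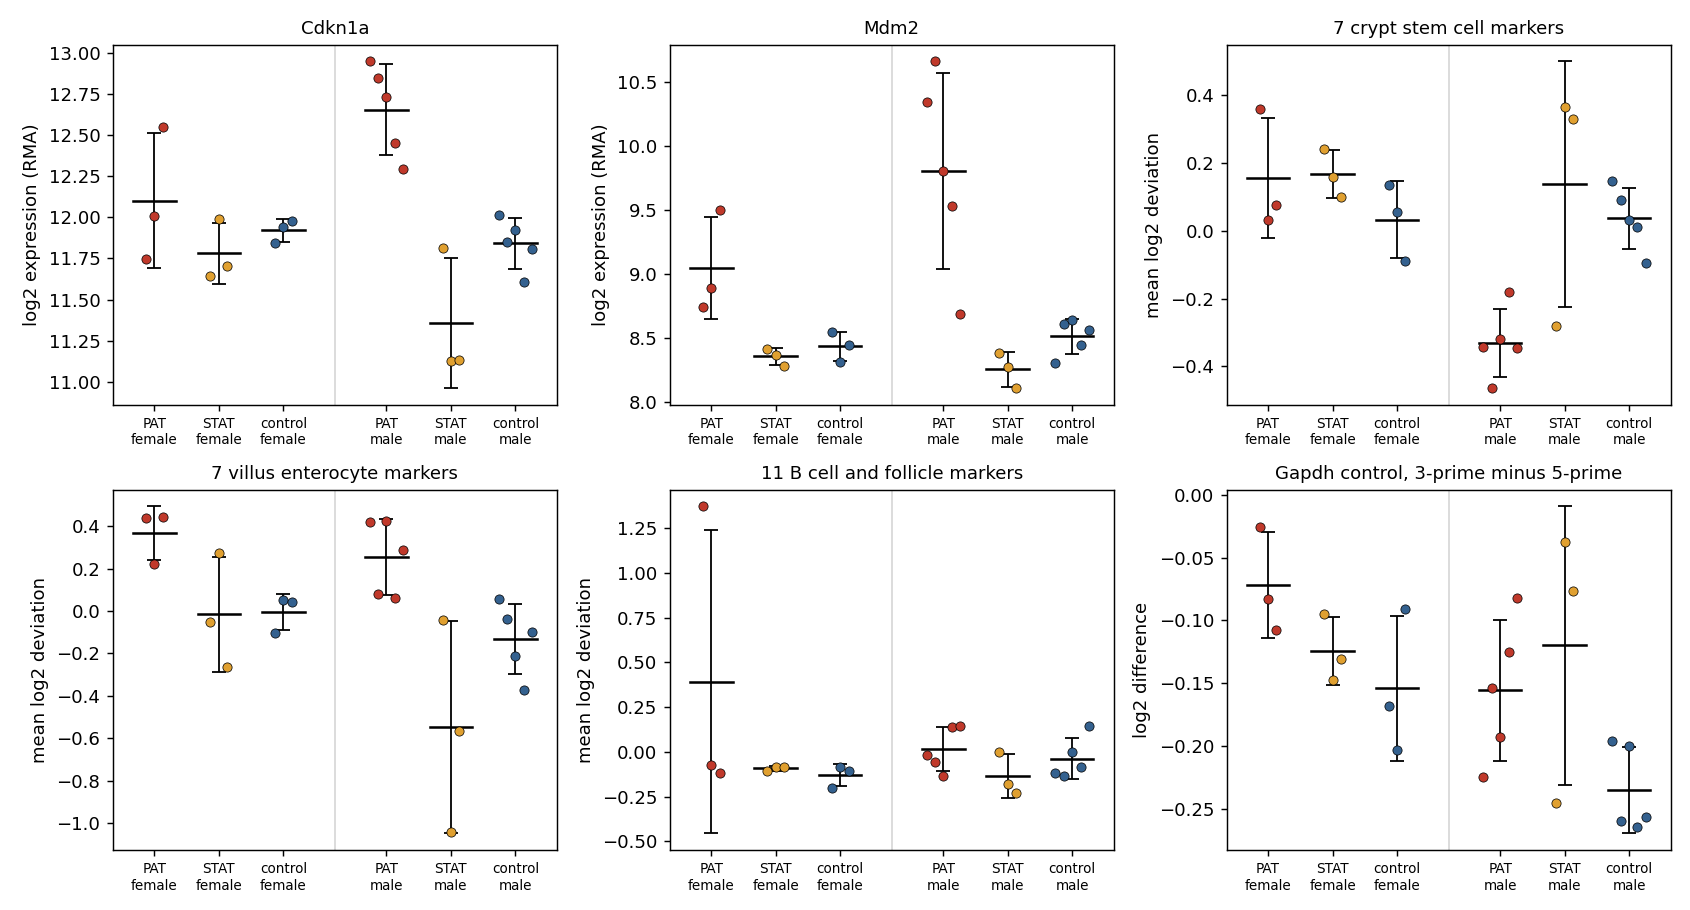
Values measured beside the cell cycle genes on each array (points), with group mean (line) and SD (bars), n = 3 or 5: log2 expression of Cdkn1a and Mdm2, mean log2 deviation of 7 crypt stem cell, 7 villus enterocyte and 11 B cell and follicle markers, and the log2 difference of the Gapdh control ends. In PAT males Cdkn1a and Mdm2 lie above and the crypt score below every control male, and PAT female 1 stands alone in the B cell panel.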

How the data were processed

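The deposited values are log2 expression per probe set, which the authors computed with RMA (background correction, normalization between arrays, probe summary) from the affy package; the submitters' processing notes name both without versions. RMA gives no detection calls, and it understates changes of dim genes. The platform annotation gave 1 symbol to 34945 of 45101 probe sets, and 932 with several, 9160 with none and 64 controls were left out. limma 3.58.1 in R 4.3.3 fitted 1 mean per group to all 22 arrays (16 residual degrees of freedom, 4.88 added by empirical Bayes). Two-sided p-values were adjusted by Benjamini-Hochberg over 18193 genes within each of 12 comparisons, with 0.05 as the threshold for a call. Adjusted p-values are limma's, errors of differences are its SE, and the fit was tested on simulated data.

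The members and lists were chosen with earlier results of these data known. Every called member was named, with values per array for up to 6 per class of smallest p (the 2 of smallest p where a class had none). For other lists up to 4 called genes were named. Nothing was imputed. Alternatives covered normalization, probe sets, dim genes, array weights, the Gapdh covariate, the arrays fitted and each array left out. No background correction or slide term could be tried on RMA values.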

Additional observations from a re-analysis of the deposited data

Results flagged for a closer look

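Single arrays were looked for in the groups of 5 (80 gene or score groups), where a value far from the rest was marked when its gap to the nearest array was a large share of the group's range (Dixon's 95% critical value). Chance marks about 1 in 20 groups, and 7 of 80 were marked. PAT male 3 had the lowest Pcna, 11.46, with the nearest PAT male at 12.02. Control male 4 was marked as the highest of its group for 5 genes. It measured 8.99 for Rrm1 (nearest control male 8.60), 9.44 for Cdk1 (9.11), 8.49 for Bub1 (8.09), 9.82 for Mki67 (9.55) and 9.70 for Top2a (9.38). Its mitotic mean deviation of 0.31 compares with -0.13 to 0.01 in the other control males, and its villus score, -0.37, was the lowest of that group. Control male 2 had the highest S-phase minus mitotic difference among control males, 0.075, with the next at -0.14. Genes on 1 array are not independent, so the 5 marks of control male 4 are not 5 separate observations. No interaction of treatment and sex was called for any of the 37 genes, and no cause of these values was tested.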

How the results depend on the processing

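No paired analysis was possible because the labels carry no replicate number shared between groups. Counts of called genes among the 37 differed from the stated ones as follows. In PAT against control females (3) there were 6 with genes of mean at least 6 only, 1 after repeated quantile normalization, 11 with array weights, 0 with the Gapdh covariate, 7 with only these groups fitted and 0 to 6 with an array left out. In males (3) there were 5, 1, 5 and 5 under the first 4 of these, 5 after median centring and 1 to 8 with an array left out (1 without PAT male 2, 8 without PAT male 5). In the average of the sexes (3) there were 5 with probe sets averaged per gene, 6 with the filter, 0 with the Gapdh covariate and 1 to 11 with an array left out (11 without PAT male 3, 6 without control male 4). PAT against STAT males (12) gave 23 with array weights, 1 with only these groups fitted, 0 without STAT males 2 and 3 and 0 to 16 with an array left out.

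Comparisons with 0 called genes gained some. STAT against control males had 15 with array weights and 0 to 2 with an array left out, and the average of the sexes 1 with array weights. PAT against STAT females had 6 with array weights and 0 to 1 with an array left out. PAT against STAT averaged had 1 each with the probe set mean, the filter and array weights, and 0 to 2 with an array left out. The PAT interaction had 6 with array weights and 0 to 3 with an array left out.

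In 3 instances an uncalled difference changed sign: Tpx2 in STAT females was 0.033 with the mean of its probe sets, and without STAT males 2 and 3 Mki67 was -0.0014 in STAT males and -0.012 in the average. Among named genes, 868 of 1044 recomputed differences kept direction and side of the threshold, 144 lost the call and 29 gained it. The S-phase median of PAT males was -0.08 with the Gapdh covariate, and the mitotic median of the average was -0.05. Over all genes in PAT females, 413 higher and 197 lower became 340 and 372 after repeated quantile normalization. Of 28 genes with several probe sets, all moved one way in 21 in PAT females and 18 in PAT males against controls. In PAT against STAT males they did so in 16. The causes were not tested.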
